A study of Homo sapiens with 3 samples.

Results

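The cytosolic DNA sensors, RNA sensors and interferon signalling genes of MCF10A cells were described here as 10 genes chosen by name. These were CGAS, STING1, TBK1, IRF3, IRF7, IRF9, RIGI, IFIH1, MAVS and TLR3, and all 10 were found by symbol among the 62754 genes of the deposited table. MCF10A cells are breast epithelial cells of human origin that grow without limit in culture and do not form tumors. The 3 replicates, labelled EV, were untreated cells that carried the empty vector of a doxycycline-inducible retroviral system without an inserted gene and had been selected with puromycin, and no doxycycline was given. RNA was sampled 27 h after seeding, and 300 ng of total RNA per library went into a preparation that removes ribosomal RNA. All replicates belong to 1 condition and 1 labelled batch, so that no groups could be compared. No interferon or nucleic acid was given as a stimulus, and a response could not be measured. All 3 replicates carried the retroviral vector, so that its effect on these genes cannot be told apart. The labels do not say whether the replicates are separate cultures, and the spread between them may thus be technical.

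Cells detect foreign or misplaced nucleic acids with sensor proteins. CGAS binds DNA in the cytosol and makes the messenger cGAMP, which activates STING1 on the endoplasmic reticulum. RIGI and IFIH1, the latter also known as MDA5, are helicases that bind viral RNA in the cytosol and signal through MAVS on mitochondria, whereas TLR3 binds double-stranded RNA in endosomes. The arms meet at the kinase TBK1 and the transcription factor IRF3, which switch on interferon genes. Secreted interferon then acts through its receptors, Janus kinases and a complex of STAT proteins with IRF9 on interferon-stimulated genes, among them IRF7, which amplifies the response.

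Levels are given as TPM, reads per base of transcript scaled to a total of 1000000 in each replicate, so that genes can be compared with each other. With the lengths of the longest annotated transcripts, the values of each replicate were whole multiples of 1 step for 100% of annotated genes, within 0.001 of a step, and at 1 read per step the libraries came to between 11166546 and 15446347 reads, fewest in replicate 3. Replicate 3 stood apart from the others. Over protein-coding genes that averaged 10 TPM or more, its median log2 ratio was -0.25 against replicate 1 and -0.23 against replicate 2, while the short non-coding RNA RN7SL1 was at 49293, 56610 and 150632 TPM. The mean chi-square per gene of the reads was 6.50 between replicates 1 and 2 and about 23 in both pairs with replicate 3, so that no library repeats another. The basal epithelial markers summed to 12669 to 16324 TPM with all 8 above 1 TPM, led by KRT5 and KRT14. The 8 immune markers summed to 1.15 to 3.25 TPM, of which CD14 held the most at a mean of 1.96 TPM, PTPRC was at 0.0728 TPM, and 5 were at 0. The 5 stromal and endothelial markers summed to at most 7.84 TPM. The luminal list was mixed, with KRT18 at 413 TPM and ESR1 and PGR below 0.05 TPM.

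Of the 10 genes, 9 had a mean of at least 1 TPM, the level the study used to call a gene expressed. Over all genes of the table this share was 24.9%, and over protein-coding genes 56.7%. The 10 genes are given here in 2 ranges, a split made after the values were seen. IRF3, MAVS, STING1, TBK1 and CGAS had means between 22.0 and 48.2 TPM, and TLR3, IFIH1, IRF7, IRF9 and RIGI had means between 0.361 and 6.69 TPM. CGAS, the lowest of the first range, was 3.28-fold above TLR3 by the means, with a mean log2 ratio of 1.72 ± 0.08 (SD, n = 3). A wider step lay within the second range, where IRF9 was 3.91-fold above RIGI by the means. The mean log2 ratio there was 2.09 ± 0.33 (SD, n = 3), with the limits on both genes given below. The median of the 10 means was 14.3 TPM, against 3.75 TPM over all protein-coding genes and 24.9 TPM over those with a mean of at least 1 TPM. Among protein-coding genes IRF3 stood at percentile 83.0 and RIGI at percentile 39.1.

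**Figure D1:**
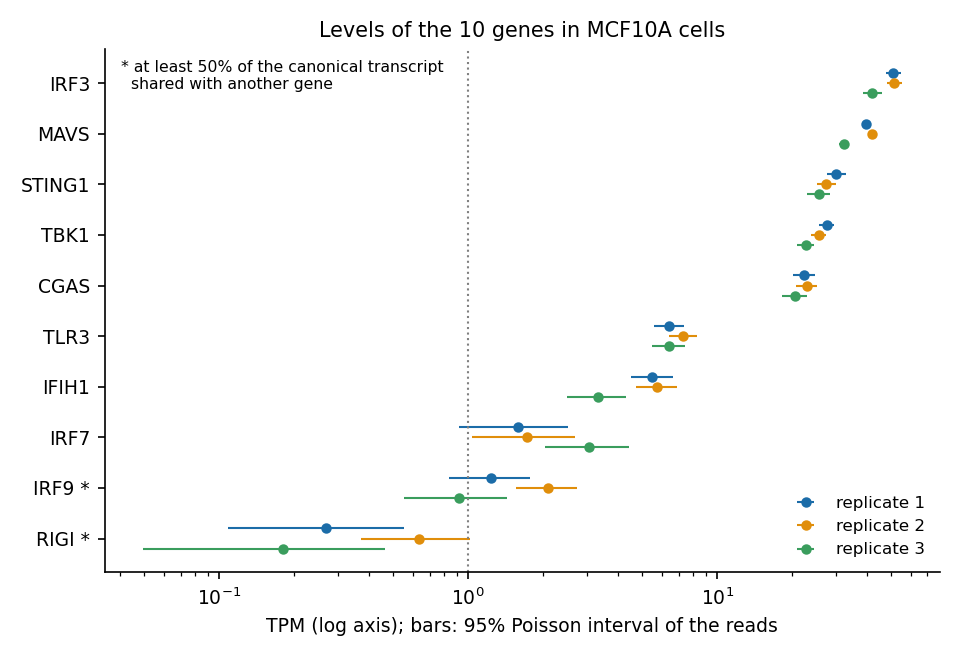
TPM of each of the 10 genes (log axis) in replicates 1 to 3 of MCF10A cells, with 95% Poisson intervals of the reads as bars and the 1 TPM level as a dotted line. The upper 5 genes lie between 20.5 and 51.5 TPM in every replicate, and the star marks RIGI and IRF9, which share at least 50% of the canonical transcript with another gene.

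In the DNA-sensing arm, CGAS (ENSG00000164430, chr6:73413515-73452297, hg38) had 22.4, 22.9 and 20.5 TPM in replicates 1, 2 and 3, on the basis of 378, 397 and 294 reads. Its canonical transcript, the 1 transcript per gene that the annotation marks as representative, has 5 exons and shares no base with another gene. STING1 (ENSG00000184584, chr5:139475533-139482935), the receptor of cGAMP, was measured at 30.2, 27.5 and 25.6 TPM. It was above CGAS in every replicate, by 1.34, 1.20 and 1.25-fold, a mean log2 ratio of 0.34 ± 0.08 (SD, n = 3). Other genes in this arm were chosen after their values were seen. ENPP1, which degrades cGAMP outside the cell, was at 3.03 ± 0.659 TPM, and SLC19A1, a carrier reported to import cGAMP, at 44.4 ± 7.41 TPM (SD, n = 3 each). Of the canonical transcript of SLC19A1, 1156 bases (23.2%) lie opposite to exons of COL18A1 on the other strand.

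TBK1 (ENSG00000183735, chr12:64452090-64502114), the kinase that phosphorylates IRF3, was measured at 27.5, 25.7 and 22.7 TPM. It was closest to STING1, with a mean log2 ratio of STING1 to TBK1 of 0.14 ± 0.04 (SD, n = 3) and STING1 the higher in every replicate, an order that turned with the canonical transcript length. IKBKE, the kinase most closely related to TBK1, was at 11.6 ± 2.74 TPM (SD, n = 3), and TBK1 was above it by 2.75, 1.74 and 2.28-fold in replicates 1, 2 and 3. IRF3 (ENSG00000126456, chr19:49659569-49665875) was the highest of the 10 genes, at 51.0, 51.5 and 42.1 TPM from 771, 800 and 541 reads. Of its canonical transcript, 227 bases (14.2%) lie opposite to exons of BCL2L12 on the other strand, and whether counting used strand is not given in the sources used here.

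In the RNA-sensing arm the adaptor MAVS was above the helicase IFIH1. MAVS (ENSG00000088888, chr20:3846799-3876123), which receives the signal of both helicases, was measured at 39.8, 42.0 and 32.3 TPM. Its reads, 2460, 2670 and 1698, were the most of the 10 genes, over an annotated transcript of 11731 bases. IFIH1 (ENSG00000115267, chr2:162267074-162318684), a sensor of long double-stranded RNA, was measured at 5.49, 5.74 and 3.32 TPM, from 107, 115 and 55 reads. Replicates 1 and 2 were close, and replicate 3 was the lowest, with a 95% Poisson interval from 2.50 to 4.32 TPM that lies below the interval of replicate 1, from 4.50 to 6.64 TPM. Intervals cover counting error only. MAVS was above IFIH1 by 7.25, 7.32 and 9.73-fold in replicates 1, 2 and 3.

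RIGI (ENSG00000107201, chr9:32455302-32526208), a sensor of short RNA with a triphosphate end, was measured at 0.269, 0.635 and 0.180 TPM. These values rest on 7, 17 and 4 reads, with 95% Poisson intervals from 0.108 to 0.554, from 0.370 to 1.02 and from 0.0492 to 0.462 TPM. All 3 values lay below 1 TPM, and RIGI was the lowest of the 10 genes in every replicate. However, 4471 of the 4628 bases of its canonical transcript (96.6%) are also exons of a second protein-coding gene without a name, ENSG00000288684, on the same strand (chr9:32455323-32552603), so that 157 bases are its own. That gene was at 0.272, 0.227 and 0 TPM from 7, 6 and 0 reads. The low value of RIGI was therefore not taken as a lack of expression, and its place below the other genes holds for the assigned reads only.

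TLR3 (ENSG00000164342, chr4:186068911-186088073), the endosomal sensor, was measured at 6.41, 7.28 and 6.38 TPM from 203, 237 and 172 reads. Its values spread little, at 6.69 ± 0.510 TPM (SD, n = 3). TLR3 was above IFIH1 in every replicate, by 1.17, 1.27 and 1.92-fold, the widest difference being in replicate 3, where IFIH1 was low. TICAM1, the adaptor of TLR3 (also named TRIF) and chosen after its value was seen, was at 22.2 ± 3.73 TPM (SD, n = 3), above TLR3 by 2.87 to 3.54-fold. As for MAVS and IFIH1, the adaptor was thus measured above the sensor. The other endosomal receptors were near 0, with TLR7 and TLR8 having 2 reads and 1 read in replicate 3 only and TLR9 none, and 99.7% of the canonical transcript of TLR9 is shared with another gene.

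Of the factors that act in the response to interferon, IRF7 (ENSG00000185507, chr11:612553-615983), itself an interferon-stimulated gene, was measured at 1.58, 1.72 and 3.06 TPM from 17, 19 and 28 reads. It was the only one of the 10 genes that was not lowest in replicate 3 but highest there. The 95% Poisson intervals of replicates 1 and 3, from 0.920 to 2.53 and from 2.03 to 4.42 TPM, overlap. IRF3 was above IRF7 in every replicate, by 13.8 to 32.3-fold. IRF9 (ENSG00000213928, chr14:24161234-24168043), a DNA-binding part of that complex, was measured at 1.24, 2.09 and 0.921 TPM from 30, 52 and 19 reads, on both sides of 1 TPM. It was the only one of the 10 genes with such a split, where 2.84% of all protein-coding genes and 18.3% of those with a mean from 0.2 to 5 TPM had one. Of its canonical transcript, 1513 of 1626 bases (93.1%) are shared with exons of ENSG00000259529, a protein-coding gene without a name on the same strand (chr14:24147548-24166452), which leaves 113 bases of its own. The other gene was at 0.274, 0.466 and 0.402 TPM. On the opposite strand, exons of a non-coding RNA gene cover 308 bases (18.9%) of the canonical transcript of IRF9.

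Sharing of most of a transcript went with low values across the whole table, which is why both genes are set apart here. Among protein-coding genes that share no base of the canonical transcript, 58.5% of 17057 had a mean of at least 1 TPM, and among those that share 90% or more, 9.18% of 839 did, with a median of 0 TPM. The 839 include readthrough and unnamed genes, such as IFNAR2-IL10RB and ENSG00000288684, and how far these account for the low share was not tested. Sharing of a smaller part did not go with low values, since 68.4% of the 1666 genes that share less than 50% reached 1 TPM. Of the 157 genes made up of the 10 genes and 147 further genes of the pathway, 8 share at least 50%. Besides RIGI and IRF9 these were TLR9, TICAM2, TREX1, RNASEH2A, IL10RB and IFITM1, chosen by this share and not by their values. Their highest mean was 1.41 TPM, that of IRF9, and none reached 2 TPM, against 101 of the other 149 genes. With the canonical transcript length IRF9 was at 3.27 TPM, so that the count at 2 TPM depends on the length used. At the 1 TPM used elsewhere, 4 of the 8 reached it, against 104 of the 149. RIGI and IRF9 are themselves among the 8, so that the comparison is not independent of their values. TREX1, the exonuclease that clears cytosolic DNA, had 0 reads in every replicate, with 100% of its transcript shared with ATRIP, which was at 17.4 to 23.0 TPM. What these genes would read under another counting was not tested.

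Promoters were available in the RefSeq table (GRCh38.p14) for 6 of the 10 genes, namely IFIH1, TLR3, RIGI, TBK1, IRF9 and MAVS. They were searched on both strands for 2 elements through which interferon acts, the interferon-stimulated response element written as GAAANNGAAA and the STAT element written as TTCNNNGAA. In windows from 250 bases before to 50 bases after the start, the first was found in 3.57% and the second in 7.66% of 35116 promoters. Of the 6 genes, IFIH1 held 3 matches of the first, 2 of which overlap each other, TLR3 held 1 of the first and 2 of the second, and IRF9 held 1 of the second. RIGI, TBK1 and MAVS held no match of either in these letters. Only the first promoter listed for each gene was searched, while the shares over 35116 promoters count every one listed. The 3 promoters with matches are shown because the matches can be seen in them. Each is printed 5′ to 3′ on the strand of the gene, from 250 bases before to 30 bases from the start on, with the matches in capitals.
IFIH1 (chr2:162318655-162318934, minus strand): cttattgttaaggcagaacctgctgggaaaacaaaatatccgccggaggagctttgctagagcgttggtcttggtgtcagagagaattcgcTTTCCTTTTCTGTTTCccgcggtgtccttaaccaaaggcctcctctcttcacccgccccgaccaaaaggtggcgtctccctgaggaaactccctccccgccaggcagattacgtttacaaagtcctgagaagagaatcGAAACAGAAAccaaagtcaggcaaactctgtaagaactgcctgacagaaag
TLR3 (chr4:186068906-186069185, plus strand): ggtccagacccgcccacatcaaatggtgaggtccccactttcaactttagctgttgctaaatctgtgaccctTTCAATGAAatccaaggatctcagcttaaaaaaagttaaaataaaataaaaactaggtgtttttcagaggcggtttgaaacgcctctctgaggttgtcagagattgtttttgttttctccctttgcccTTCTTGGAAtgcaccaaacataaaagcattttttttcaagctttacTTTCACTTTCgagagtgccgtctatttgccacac
IRF9 (chr14:24161015-24161294, plus strand): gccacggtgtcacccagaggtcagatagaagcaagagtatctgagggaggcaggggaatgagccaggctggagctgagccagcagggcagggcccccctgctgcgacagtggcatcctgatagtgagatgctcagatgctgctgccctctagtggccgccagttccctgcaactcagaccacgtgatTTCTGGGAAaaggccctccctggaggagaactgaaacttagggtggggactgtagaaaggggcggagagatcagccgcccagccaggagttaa
In IFIH1 the first bases of the matches lie 159, 153 and 21 bases before the start. In TLR3 the response element begins 4 bases before the start and runs across it, and the STAT elements begin 178 and 50 bases before it. In IRF9 the match begins 63 bases before the start. These starts are those of RefSeq, and in TLR3 and IRF9 they lie inside the gene spans given above. For TLR3 nearly the whole window lies within that span, so that its distances do not count from the first base of the span. A match is a string of letters and not a measured site. IFIH1 and TLR3 were at 4.85 ± 1.33 and 6.69 ± 0.510 TPM (SD, n = 3 each), while TBK1 and MAVS, with no match, were at 22.7 to 27.5 and 32.3 to 42.0 TPM over the replicates. RIGI, also with no match, was at 0.361 ± 0.241 TPM, and IRF9, with a match of the STAT element, at 1.41 ± 0.603 TPM (SD, n = 3 each), so that genes with and without a match overlapped.

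The order of the 10 genes by their means was IRF3, MAVS, STING1, TBK1, CGAS, TLR3, IFIH1, IRF7, IRF9 and RIGI. Of the 9 pairs of neighbours in this order, 8 kept it in every replicate and differed by more than the SD of their log2 ratio. The exception was IRF7 over IRF9, with ratios of 1.28, 0.823 and 3.32 in replicates 1, 2 and 3. An exact sign-flip test over 3 replicates cannot fall below p = 0.25, and none is given. The order depends on the length by which reads are divided. The deposited TPM used the longest transcript of each gene, which for IRF9, TBK1, IRF3 and STING1 is 2.83, 1.97, 1.80 and 1.47 times the canonical transcript, while it is the same transcript for MAVS, CGAS and TLR3. With TPM recomputed from the reads by the canonical transcript, an alternative chosen after the data were seen, IRF3 was at 70.9 ± 6.95, TBK1 at 40.6 ± 3.43, STING1 at 33.4 ± 2.43, MAVS at 31.1 ± 3.81 and CGAS at 17.9 ± 0.822 TPM (SD, n = 3 each). TBK1 was then above STING1 in every replicate, with a mean log2 ratio of 0.28 ± 0.04 (SD, n = 3). MAVS thereby went from the second to the fourth place, and its difference from STING1 was then within the SD of their ratio. IRF9 rose to 3.27 ± 1.37 TPM and was above IRF7, at 1.85 ± 0.739 TPM (SD, n = 3 each), but not in every replicate. The gap between CGAS and TLR3 and the last place of RIGI were kept.

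**Figure D2:**
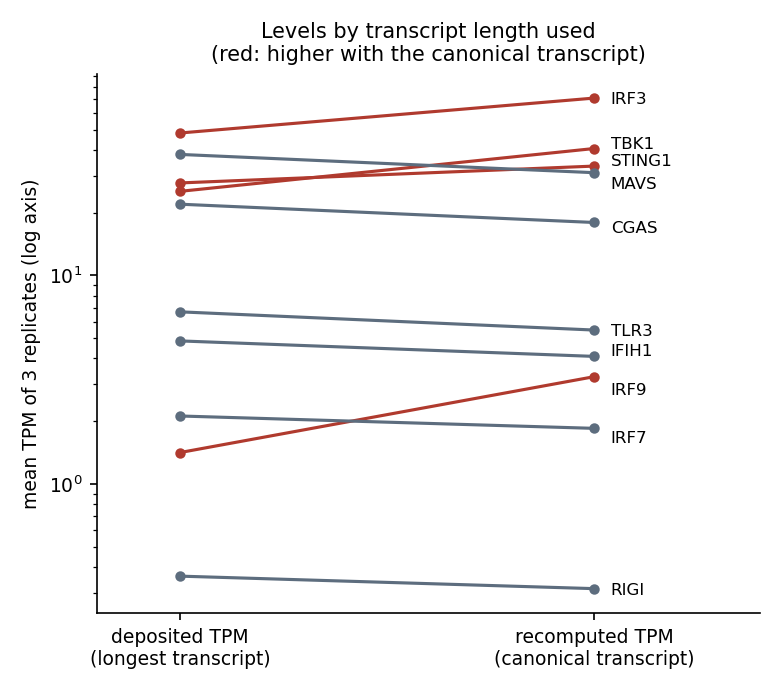
Mean TPM of the 10 genes over 3 replicates (log axis), on the left as deposited with the longest transcript and on the right recomputed from reads with the canonical transcript, 1 line per gene. Red lines mark the 4 genes that were higher with the canonical transcript, of which IRF9 moved most, from 1.41 to 3.27 TPM.

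The replicates were compared gene by gene to see which of these values varied more than their reads allow. The median SD of log2(TPM + 1) of the 10 genes was 0.18, against 0.16 over protein-coding genes that averaged 1 TPM or more, and it was 0.06 without replicate 3. Replicate 3 was the lowest for 9 of the 10 genes, and for 78.5% of those protein-coding genes. With TPM rescaled to protein-coding genes only, it was the lowest for 6 of the 10 and for 45.9% of the others. By a chi-square test of the reads against equal TPM, adjusted over all genes with at least 15 reads, MAVS, IRF3, TBK1, IFIH1, IRF9 and RIGI differed between replicates, while 54.3% of the 15802 genes tested did, and 65.3% of the protein-coding genes with means from 1 TPM on. The adjusted p was 4.6e-16 for MAVS, 0.0045 for IFIH1 and 0.038 for RIGI, and 0.405 for CGAS, 0.377 for TLR3, 0.0888 for STING1 and 0.0760 for IRF7. With size factors in place of equal TPM, which take out the shift of replicate 3, IRF7 alone was called, at an adjusted p of 0.0217, where 31.7% of genes were. Without replicate 3, 0 of the 10 genes were called, with 21.3% of genes called.

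Further genes of the pathway were read from 9 lists with 147 genes, of which 99 had a mean of at least 1 TPM. Among other proteins that bind DNA, 8 of 12 were at or above it, with the highest values in XRCC5 (581 TPM), XRCC6 (484 TPM) and HNRNPA2B1 (362 TPM), which also serve in DNA repair or RNA processing. HNRNPA2B1 was at 547, XRCC5 at 526 and XRCC6 at 504 TPM with the canonical transcript length, so that their order changed. IFI16, a DNA sensor named after its value was seen, was at 113 ± 14.5 TPM (SD, n = 3) and thus 4.63 to 5.79-fold above CGAS in single replicates, while AIM2, ZBP1 and PYHIN1 had at most 3 reads in any replicate. Among other RNA-binding sensors, 10 of 14 were at or above 1 TPM, with the helicases DHX9 (397 TPM), DHX15 (367 TPM) and DDX3X (239 TPM) on top. With the canonical transcript length DHX9 was at 323, DDX3X at 314 and DHX15 at 303 TPM, so that DDX3X came above DHX15. DHX58, the helicase that modulates RIGI and IFIH1 and was named after its value was seen, had 0.295, 0.788 and 0.433 TPM from 4, 11 and 5 reads. No base of its transcript is shared.

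Of the adaptors and kinases between sensors and transcription factors, 14 of 16 were at or above 1 TPM. Their highest were TANK and AZI2, scaffolds that bind TBK1, at 59.8 ± 4.96 and 38.7 ± 5.41 TPM (SD, n = 3 each). The ubiquitin ligase TRAF2 followed at 32.2 ± 6.20 TPM (SD, n = 3), and CHUK came next at 30.4 ± 3.02 TPM (SD, n = 3). With the canonical transcript length TANK was at 50.1, AZI2 at 31.6 and TRAF2 at 26.2 TPM. The longest transcript of CHUK has 4845 bases against 3600 of the canonical one, so that this order depends on the length used. Of the canonical transcript of AZI2, 79.8% lies opposite to exons of CMC1 and ZCWPW2, so that without strand its reads cannot be told apart from theirs. Of the modifiers of the sensors, 15 of 16 were at or above 1 TPM, led by PCBP2, TRIM25 and RNF5 at 144, 67.6 and 51.1 TPM. Exons of MAP3K12 lie opposite to 47.3% of the transcript of PCBP2. TRIM25 is a ubiquitin ligase of RIGI, PCBP2 acts on MAVS and RNF5 on STING1. Of the proteins that remove, process or mask the cell's own nucleic acids, 10 of 11 were at or above 1 TPM. They were led by BANF1, which coats DNA, at 249 ± 27.8 TPM and the RNA editor ADAR at 221 ± 25.0 TPM (SD, n = 3 each). PNPT1, which degrades mitochondrial RNA, followed at 76.8 ± 6.71 TPM (SD, n = 3). RNASEH2A lay on both sides of 1 TPM, at 0.766, 1.79 and 0.900 TPM from 5, 12 and 5 reads, and 94.1% of its transcript is shared. Of the other interferon regulatory factors, 4 of 6 were at or above 1 TPM, among them IRF2 at 14.3 ± 2.22 TPM and IRF1 at 6.37 ± 0.384 TPM (SD, n = 3 each), and IRF4 and IRF8 had 0 reads and 1 read in all. IRF2 was at 23.4 TPM with the canonical transcript length. Of the canonical transcript of IRF1, 16.3% lies opposite to exons of IRF1-AS1.

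**Figure D3:**
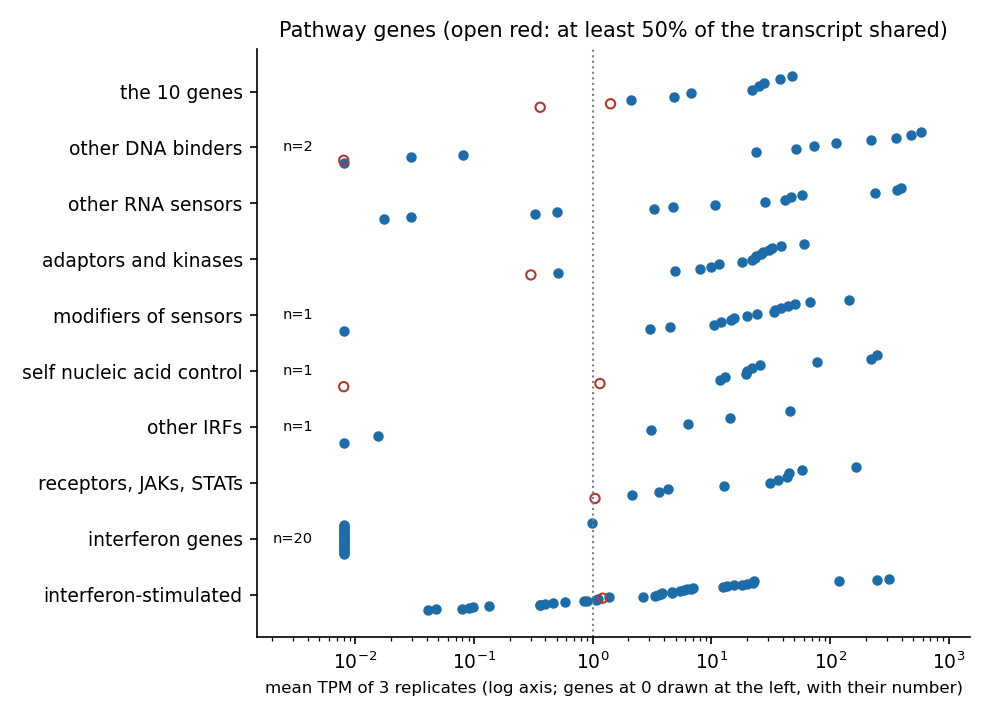
Mean TPM over 3 replicates (log axis) of the 10 genes and of 9 lists of pathway genes, 1 point per gene, with genes at 0 drawn at the left edge and their number beside them. Open red points mark the 8 genes with at least 50% of the canonical transcript shared, all below 2 TPM in the deposited values. Of the 21 interferon genes 20 lie at 0.

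Both ends of interferon signalling were measured apart from each other, with receptors present and ligands near absent from the reads. Of 21 interferon genes, 20 had 0 reads in every replicate, which allows up to 0.459 to 0.977 TPM, depending on gene and replicate, by a limit of 3 reads. Several of them are close copies of each other, so that reads which fit more than 1 copy could be missing. IFNE was the exception, at 0.644, 1.25 and 1.06 TPM from 5, 10 and 7 reads, also on both sides of 1 TPM. It is 1 of 16 interferon genes in a cluster of 405 kb on chromosome 9 (chr9:21077104-21482313). IFNE lies within the span of MIR31HG, a long non-coding RNA gene on the same strand, which was at 3.09 ± 0.272 TPM (SD, n = 3), and reads from its unspliced RNA cannot be told apart from those of IFNE.

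All 11 receptor, Janus kinase and STAT genes had a mean of at least 1 TPM. For interferon gamma, the receptor chains IFNGR2 and IFNGR1 were at 166 ± 21.7 and 44.7 ± 2.30 TPM (SD, n = 3 each). For type I interferon, IFNAR1 was at 31.0 ± 1.56 TPM and IFNAR2 at 3.59 ± 0.890 TPM (SD, n = 3 each), with 49.1% of the transcript of IFNAR2 shared with the readthrough gene IFNAR2-IL10RB. With the canonical transcript length IFNAR2 was at 6.50 TPM and IFNAR1 at 25.7 TPM. For type III interferon, IFNLR1 was at 2.15 ± 0.254 TPM and IL10RB at 1.05 ± 0.246 TPM (SD, n = 3 each), the latter with 89.2% shared and replicate 3 below 1 TPM. IL10RB was at 1.81 TPM and IFNLR1 at 1.76 TPM with the canonical transcript length, so that the order of their means turned. Of the Janus kinases, JAK1 was at 43.1 ± 2.59, TYK2 at 36.7 ± 6.06 and JAK2 at 4.29 ± 0.220 TPM (SD, n = 3 each). STAT2, which binds IRF9 in the complex, was at 12.7 ± 1.56 TPM and IRF9 at 1.41 ± 0.603 TPM (SD, n = 3 each). STAT2 was above IRF9 in every replicate, with the limit on IRF9 given above.

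Of 40 genes known to be stimulated by interferon, 27 had a mean of at least 1 TPM and 13 did not, where 56.7% of protein-coding genes did. The list spanned from 0.0409 TPM for EPSTI1 to 313 TPM for IFITM3, with 3 genes above 100 TPM, 8 between 10 and 100, 16 between 1 and 10 and 13 below 1. The highest were IFITM3, LY6E and IFITM2 at 313 ± 51.6, 250.4 ± 34.5 and 118 ± 17.7 TPM (SD, n = 3 each), of which the IFITM proteins hinder the entry of viruses into cells, and which are paralogs that counting could split. DTX3L, IFIT5, PARP14, BST2 and SAMD9 followed with means between 18.0 and 23.0 TPM. At the other end, 3 genes were named after their values were seen. MX1, a GTPase that blocks viruses, was at 0.361, 0.320 and 0.502 TPM from 11, 10 and 13 reads. RSAD2 (viperin) was at 0.0783, 0.114 and 0.0460 TPM from 2, 3 and 1 reads. CXCL10, a chemokine, was at 0, 0.315 and 0.762 TPM from 0, 2 and 4 reads. ISG15, a ubiquitin-like protein also named after its value was seen, was at 6.78, 8.24 and 5.97 TPM from 28, 35 and 21 reads. The replicates of 4 genes, IFITM1, OASL, HERC5 and ISG20, lay on both sides of 1 TPM. They rest on few reads, with 5, 3 and 7 for IFITM1 and 10, 19 and 24 for OASL in replicates 1, 2 and 3. HERC5 had 15, 22 and 19 reads and ISG20 24, 37 and 17. With the canonical transcript length the mean of ISG20 went from 0.898 to 2.61 TPM, and those of OASL and HERC5 fell below the cutoff, to 0.901 and 0.867 TPM. None of the 40 genes was at 0 in every replicate.

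**Figure D4:**
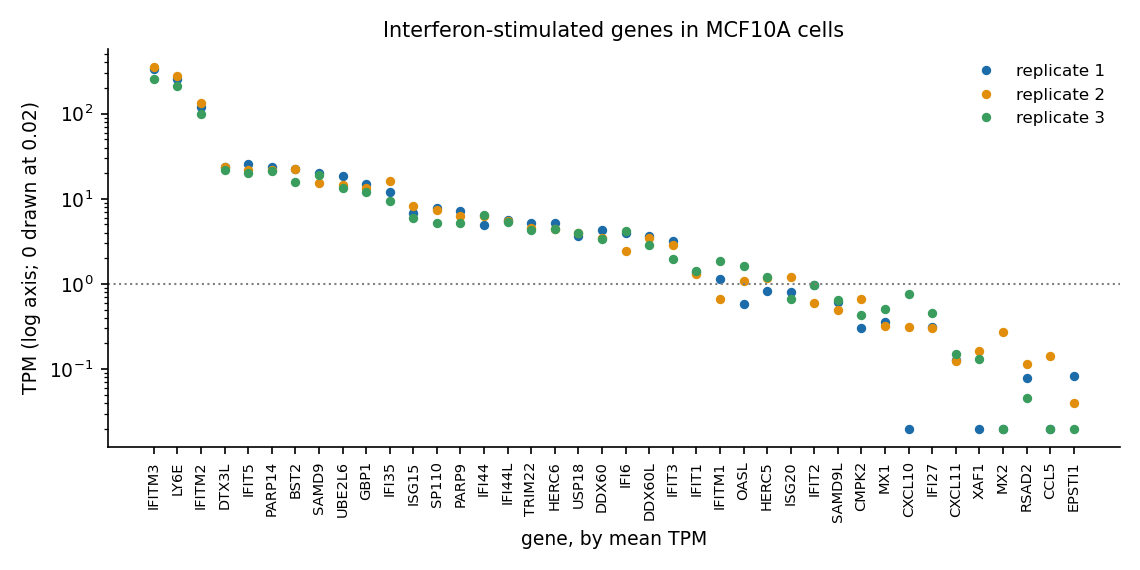
TPM (log axis) of 40 interferon-stimulated genes in replicates 1 to 3, in the order of their means, with values of 0 drawn at 0.02 and the 1 TPM level as a dotted line. IFITM3, LY6E and IFITM2 stand above the others, and 13 genes have means below 1 TPM.

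The response element was found in 22 of the 32 promoters of interferon-stimulated genes in the RefSeq table (68.8%), against the 3.57% of all promoters. The first share counts 1 promoter per gene and the other every promoter listed, so that their units differ. The genes with a match ranged from 0.0409 to 313 TPM with a median of 3.64 TPM, and 17 of 22 were at or above 1 TPM. The 10 without a match ranged from 0.0795 to 15.6 TPM with a median of 2.63 TPM, and 5 were at or above 1 TPM. Genes with and without a match thus overlapped in their levels, and IFIH1 and TLR3 fell within the range of both.

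The gene most like each of the 10 in level was the protein-coding gene at the smallest Euclidean distance of log2(TPM + 1) over 3 replicates. For IRF3 it was MAGED1, at a distance of 0.02, for STING1 RING1, for MAVS TGFBRAP1, for CGAS RDH14 and for TBK1 TENT2, all at distances up to 0.0345. Within a distance of 0.2 lay 286 to 340 protein-coding genes for each of these 5, so that the likeness is that of genes at one level. For IRF7 the nearest, TMEM139 at 0.26, was beyond that distance. The nearest to TLR3 was ZNF138, to IFIH1 RNASE7, to IRF9 NPIPB4 and to RIGI FERMT3, at distances from 0.0479 to 0.0776 and with 15 to 82 genes within 0.2.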

How the data were processed

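RNA-seq was measured in 3 replicates of MCF10A cells of 1 condition. The authors quality controlled the reads, mapped them to hg38 and counted them with Seq2science, and deposited 1 table of TPM per gene and replicate, each replicate summing to 1000000. The submitters' processing notes list fastp, STAR and MultiQC and the builds hg38 and GRCh38.p14. Which annotation release was used, and whether strand was, is not given in the sources used here. The replicates were not pooled, and 0 columns of values were left unused.

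GENCODE release 44 (hg38) gave positions, lengths and types, and 62700 of 62754 genes matched it. Reads were recovered as TPM times the length of the longest transcript, less 1 base per exon, divided by the smallest value above 0 of each replicate. The limit for a gene at 0 was 3 reads. Shared bases were those of the canonical transcript inside exons of other genes on the same strand. Promoters were those of RefSeq, the first listed for each gene of the lists. Values are means ± SD, and no groups were compared. Equality of TPM between replicates was examined from the reads with a chi-square test, adjusted by Benjamini and Hochberg over all genes with at least 15 reads, with 0.05 as threshold. The test was tested on simulated reads of 62700 genes with counting error only. All 200 genes made to change 4-fold were found (100%), each drawn from genes with at least 200 expected reads in all. RIGI, IRF7 and IRF9 lie below that, at 28, 64 and 101 reads, so that the share found says nothing of them. Of 15643 unchanged genes, 4.92% fell under an unadjusted p of 0.05 in the chi-square test.

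The 10 genes and the lists, 183 genes with markers, were chosen with earlier results of these data known. Named by rule were the 10 genes, all receptor, Janus kinase and STAT genes, interferon genes with reads, the 8 highest interferon-stimulated genes, the 3 highest of each other list, every gene with replicates on both sides of 1 TPM (also among interferon-stimulated genes), and interferon-stimulated genes at 0 throughout, which gave 53 genes, not all of which are reported here. For each of the 10 genes the nearest protein-coding gene in level was also named. Alternatives covered the cutoff, the median, the pseudocount, the genes in the TPM total, the minimum of reads, size factors and leaving out each replicate. The canonical transcript length and leaving out shared genes were added after the data were seen. The software was scipy 1.17.1, pandas 2.3.3, numpy 2.4.6 and, for plots, matplotlib 3.10.9 under Python 3.11.15.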

Additional observations from a re-analysis of the deposited data

How the results depend on the processing

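No paired analysis was possible because there is a single condition. The number of the 10 genes that reached 1 TPM was 9 in all alternatives that kept this cutoff and the 10 genes, also without any 1 replicate. With the cutoff at 2 TPM it was 8, and at 0.5 TPM it was 9. Without the 2 shared genes, all 8 that remained reached 1 TPM. Of the 147 pathway genes 99 were at or above 1 TPM, between 93 (2 TPM) and 105 (0.5 TPM) and from 97 to 100 with 1 replicate left out. Of the 40 interferon-stimulated genes 27 were, between 23 (2 TPM) and 30 (0.5 TPM) and from 25 to 27 with 1 replicate left out. The number of the 10 genes on both sides of the cutoff was 1. It was 2 at 2 TPM, 0 with protein-coding genes only, 0 with the canonical transcript length and from 0 (without replicate 3) to 1 with 1 replicate left out. The median level of 14.3 TPM was 15.3 without mitochondrially encoded genes and 16.5 with protein-coding genes only, both of which raise every gene by construction, 11.7 with the canonical transcript length, 23.6 without the 2 shared genes and 22.0 with only the genes at or above 1 TPM, both of which drop low genes. It lay from 13.9 to 14.8 with 1 replicate left out. Neighbours in order numbered 8 of 9, from 8 to 9 with 1 replicate left out and 7 with the canonical transcript length. The median spread of 0.18 lay from 0.0616 (without replicate 3) to 0.23 (without replicate 1), and the cause of the low value was not tested. The number of genes called by the chi-square test was 6, 1 with size factors, and from 0 (without replicate 3) to 6 with 1 replicate left out. Of the 53 named genes, 38 moved by more than 1 SD with the canonical transcript length, 35 with protein-coding genes only and 9 without mitochondrially encoded genes. With 1 replicate left out of 3, a shift of over 1 SD cannot arise, and those values say nothing of stability. Depth limits RIGI, IRF7, IRF9, IFNE, RNASEH2A, IL10RB, IFITM1, OASL, HERC5 and ISG20, which rest on at most 52 reads in any replicate. The same holds for EPSTI1, MX1, RSAD2, CXCL10, ISG15 and DHX58.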
